A study of Mus musculus with 3 samples.

Results

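Slamf1, Cd48 and Cd244 are 3 genes of the SLAM family of leukocyte receptors, and the surface products of the first pair, CD150 and CD48, were also counted with oligonucleotide-tagged antibodies in the same mouse bone marrow cells. The members were taken by name from the deposited matrix: 3 of its 31053 gene rows and 2 of its 4 antibody tag rows, over the 3470 cells that the authors kept. The cells were LSK cells (lineage-negative, Sca1-positive, Kit-positive), the gate that holds hematopoietic stem cells and multipotent progenitors. Helios-deficient mice 1 and 2 gave 557 and 824 cells, and wild type mice 1 and 2 gave 1175 and 914. Helios, the product of Ikzf2, is a DNA-binding relative of Ikaros, and the study asked what its loss does in this mixed population. All 4 mice were labelled with their own hashtag antibody, pooled and run together as 1 droplet library. The allele behind the deficiency and the age and strain of the mice are not given in the sources used here.

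SLAM receptors are immunoglobulin-superfamily proteins that bind other SLAM proteins on neighbouring cells and signal through small SH2 adaptors of the SAP family. CD150 (Slamf1) binds itself, while CD48, which is held in the membrane by a lipid anchor, is the ligand of CD244 (Cd244). In mouse bone marrow the family is used to sort cells: stem cells carry CD150 and lack CD48 and CD244, and CD48 and CD244 appear on progenitors.

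The 3 genes lie in 1 cluster of SLAM family genes on chromosome 1, in the direction of the plus strand, with Ly9 and Slamf7 between Cd244 and Cd48. Their spans in the RefSeq table (GRCm38.p6, the same assembly as the mm10 build named in the submitters' processing notes) are 171767131 to 171801184 for Slamf1 (ENSMUSG00000015316), 171681245 to 171705258 for Cd48 (ENSMUSG00000015355) and 171558718 to 171585316 for Cd244 (ENSMUSG00000004709, listed there as Cd244a). Together they cover 242 kb, inside a 1.03 Mb stretch that holds 9 genes of the family, and Ikzf2 lies 102 Mb away on the same chromosome. Promoter sequences are shown because Helios belongs to a family of DNA-binding proteins and because Cd48 and Cd244 moved together below. The windows from RefSeq hold the 250 bases before a transcript's start. The Slamf1 window (chr1:171766882-171767131) is shown whole. The Cd48 and Cd244 windows start 497 and 225 bases inside the annotated gene span, since other transcripts start earlier, so only 30 bases around each match are shown (chr1:171681904-171681933 for Cd48, chr1:171558977-171559006 and chr1:171559109-171559138 for Cd244). Capitals mark a match on either strand to GGGAA, the core bound by Ikaros family proteins, or, in Cd48, to TGTGGT, a RUNX core.
Slamf1: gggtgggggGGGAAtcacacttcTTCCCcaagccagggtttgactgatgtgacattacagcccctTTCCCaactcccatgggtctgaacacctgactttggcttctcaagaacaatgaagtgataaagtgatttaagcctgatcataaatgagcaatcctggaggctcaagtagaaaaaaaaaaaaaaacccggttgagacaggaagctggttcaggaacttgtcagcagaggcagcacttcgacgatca
Cd48: aatctcattccaTGTGGTgtgatggtagtg
Cd244 (distal): ctgttggttttctTTCCCaccctgtgggag
Cd244 (proximal): catcttagcttgtGGGAAcccacgtggagg
GGGAA was found 3 times in the Slamf1 window, 185 to 241 bases before the start, 2 times in that of Cd244, at 203 and 71 bases, and 0 times in that of Cd48. It stood in 56.2% of all 32851 promoter windows of this length, so its presence is common. TGTGGT, found 1 time in Cd48 at 76 bases, stood in 14.05% of all windows. The GATA core AGATAA was found in 0 of the 3 windows and in 9.99% of all windows. The ETS core, CCGGAA, was likewise found in 0 of the 3, against 12.03% of all. A match is a description of these letters, not a bound site.

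RNA values below are counts of unique molecular identifiers (UMIs, 1 per captured molecule) summed over the cells of a mouse and scaled to 1000000 UMIs of that sum (CPM). Total UMIs per mouse were 5729987 to 10317599, and the median was 7599 to 8670 per cell. Ikzf2 RNA was no check of the labels: it stood at 73.6 and 82.7 CPM in Helios-deficient and 70.6 and 67.7 CPM in wild type mice (edgeR adjusted p = 0.460), and 3′-end tags need not lie in a deleted part. The 4 LSK markers summed to 751 to 898 CPM in every mouse. Of the markers of mature cells, those of macrophages (8.14 to 25.8 CPM) and neutrophils (2.97 to 16.1 CPM) were low. The T and NK cell list stood at 236 to 284 CPM, but 250 of a mean of 255 CPM came from Nkg7 alone, and Cd3e was at 0 in all mice. Each mouse is 1 replicate (n = 2 per genotype). Nothing in the labels ties the mice to litters or days.

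Slamf1 was sparsely captured, with 205 UMIs in 186 cells. Helios-deficient mice 1 and 2 had 6.46 and 7.60 CPM, and wild type mice 1 and 2 had 5.62 and 5.50 CPM. Cd48 gave 6046 UMIs in 1869 cells, at 186, 180, 190 and 180 CPM in the same order of mice. Cd244 gave 864 UMIs in 694 cells, at 23.2, 19.5, 33.1 and 26.9 CPM. Levels of different genes are not compared, since capture near the 3′ end differs by gene.

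Of the 7 other receptors of the family, Cd84 (1599 UMIs) and Ly9 (512 UMIs), both of which bind themselves, were the ones with enough counts to be tested. Slamf6, Slamf7, Slamf8 and Slamf9 gave 7 to 34 UMIs in the whole series, and Cd2, an adhesion receptor that binds CD48 and lies on chromosome 3, gave 2. The adaptor side was thin as well. Sh2d1a, which encodes SAP, and Sh2d1b2 had 0 UMIs in all 4 mice, and Sh2d1b1, which encodes the related adaptor EAT-2, had 17. The tyrosine kinases Fyn, Lck and Lyn and the phosphatases Inpp5d, Ptpn6 and Ptpn11 that act downstream of these receptors were all measured, at 204 to 5205 UMIs for the 9 signalling genes tested.

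Cd48 RNA followed its protein closely. Cells of each mouse were split into quintiles by their CD48 tag UMIs, and RNA was summed within each. In the lowest quintile Cd48 was at 14.5 and 11.3 CPM in Helios-deficient mice 1 and 2 and at 22.5 and 22.2 CPM in wild type mice 1 and 2, and in the highest at 341, 332, 325 and 308 CPM. The mean over mice was 17.7, 53.1, 147, 235 and 326 CPM from the lowest to the highest quintile, and Cd48 was higher at every step in 4 of 4 mice. The lowest and highest quintiles did not overlap. The log2 difference was 4.22 (SE 0.11, n = 4 mice, edgeR adjusted p = 1.66e-34). Only 1 of 9174 genes tested had a smaller p. Of all genes tested, 35.8% were called in this comparison, so a call by itself says little there.

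**Figure D1:**
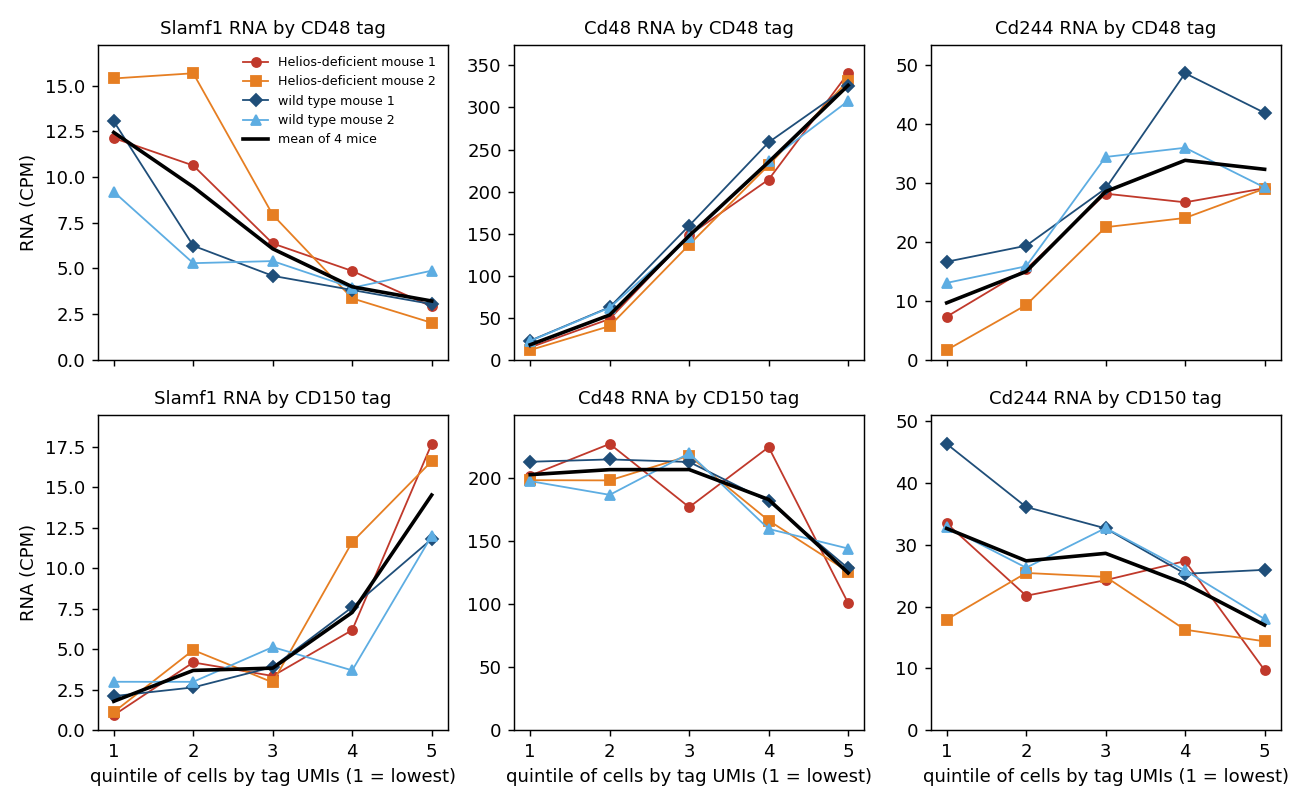
RNA of Slamf1, Cd48 and Cd244 (CPM, linear axes from 0) by quintile of the CD48 tag (upper row) and of the CD150 tag (lower row), 1 line per mouse and a black line for the mean of 4 mice. Cd48 rises at every CD48 quintile in all 4 mice, while Slamf1 goes from 12.4 to 3.21 CPM along CD48 and from 1.79 to 14.5 CPM along CD150.

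The other 2 members moved in opposite directions along the CD48 tag. Cd244, the receptor for CD48, stood at 7.27, 1.62, 16.6 and 13.0 CPM in the lowest quintile of Helios-deficient mice 1 and 2 and wild type mice 1 and 2, and at 29.1, 29.0, 41.9 and 29.2 CPM in the highest. It was higher in the highest quintile in all 4 mice, with a log2 difference of 1.75 (SE 0.23, edgeR adjusted p = 1.12e-07). Most of that step lay below the middle quintile, at 28.5 ± 4.88 CPM (SD, n = 4), and the mean was 33.8 and 32.3 CPM in the upper quintiles. Slamf1 went the other way, from 12.1, 15.4, 13.0 and 9.18 CPM to 2.91, 2.01, 3.04 and 4.87 CPM, with no overlap. Its log2 difference was -1.85 (SE 0.32, edgeR adjusted p = 2.96e-06). Ly9 rose by 0.60 (SE 0.22, edgeR adjusted p = 0.0270) and Cd84 fell by 0.61 on the log2 scale (SE 0.14, edgeR adjusted p = 0.000795). The Ly9 call was lost with DESeq2 (adjusted p = 0.383), with the tag divided by the other mice's hashtags (edgeR adjusted p = 0.118), and without Helios-deficient mouse 2 (0.145), wild type mouse 1 (0.0737) or wild type mouse 2 (0.0623). Cd84 rose by 0.33 (edgeR adjusted p = 0.0370) when the tag was divided by the cell's RNA UMIs.

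Other measures moved with the CD48 tag. Median RNA UMIs per cell went from 6351 in the lowest to 13186 in the highest quintile, while the summed hashtags of the other 3 mice, a measure of unbound antibody, went from 125 to 137. The T and NK cell list went from 84.1 to 368 CPM, led by Nkg7, and the mast cell and basophil list, led by Cpa3, from 6.01 to 57.4 CPM. Their part in the result was not tested. With the tag divided by the cell's RNA UMIs the log2 differences were 2.42 for Cd48, 1.80 for Cd244 and -1.52 for Slamf1, all past the threshold. With a centred log ratio over the 4 tags Cd244 moved to 2.64.

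Of the 9 SLAM signalling genes tested, 2 rose and 1 fell along the CD48 tag and 6 were not called, with a median log2 difference of -0.03 beside -0.02 over all genes. The comparison called 35.8% of all genes, so this count by itself says little about the signalling genes. Lck, a Src family kinase, rose by 1.16 (edgeR adjusted p = 1.46e-06), Inpp5d, the SHIP1 lipid phosphatase, rose by 0.37 (edgeR adjusted p = 0.0342), and Prkcq, protein kinase C theta, fell by 1.05 on the log2 scale (edgeR adjusted p = 1.44e-06). All 13 of the tested LSK surface genes were called. The 5 that rose were Cd34, Flt3, Cd27, Cd53 and Cd37, and the 8 that fell included Procr, Itga2b, Esam, Cd9, Vwf, Ly6a and Kit. Procr, the endothelial protein C receptor of stem cells, and Esam, an adhesion molecule, fell by 2.17 and 2.16 on the log2 scale, and Flt3, the receptor of multipotent progenitors, rose by 1.27. Among genes at a mean of 10 CPM or more, the largest rises were Igkc, Ctsg, Elane, Mpo and Slpi, which apart from the antibody chain Igkc are granule genes of the myeloid line. Ctsg went from 5.44 ± 1.43 to 331 ± 191 CPM (SD, n = 4). Igkc stood at 2998 ± 4119 CPM in the highest quintile and was higher there in 2 of 4 mice, so its value rests on few cells. The largest falls were Meg3, Aldh1a1, Tgm2, Mmrn1 and Ndn. Meg3, an imprinted noncoding RNA, went from 50.3 ± 9.93 to 2.55 ± 2.32 CPM.

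Slamf1 RNA also followed its protein, at far lower counts. In the lowest quintile of the CD150 tag Slamf1 stood at 0.930, 1.12, 2.11 and 2.99 CPM in Helios-deficient mice 1 and 2 and wild type mice 1 and 2, from 12 UMIs in all. In the highest it stood at 17.7, 16.6, 11.8 and 11.99 CPM, from 97 UMIs. All 4 mice were higher in the highest quintile, and the groups did not overlap. The log2 difference was 2.88 (SE 0.36, edgeR adjusted p = 2.73e-11), the tenth highest of 9289 genes tested, in a comparison that called 8.88% of all genes. The mean over mice was 1.79, 3.69, 3.83, 7.27 and 14.5 CPM, so most of the step lay in the upper 2 quintiles, and 1 of 4 mice was higher at every step. With the tag divided by the cell's RNA UMIs the log2 difference was 1.80 (edgeR adjusted p = 2.27e-05).

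Cd48 and Cd244 both fell along the CD150 tag, though much less than Cd48 had risen along its own. Cd48 stood at 202, 198, 213 and 197 CPM in the lowest and at 101, 126, 128 and 144 CPM in the highest quintile (log2 difference -0.68, SE 0.07, edgeR adjusted p = 4.96e-16). The means of the lower 3 quintiles were 202, 206 and 206 CPM, so the fall lay in the upper part of the CD150 range. Cd244 went from 33.5, 17.9, 46.3 and 32.9 CPM to 9.72, 14.4, 25.9 and 18.0 CPM (log2 difference -0.86, SE 0.17, edgeR adjusted p = 3.07e-05), and the quintiles overlapped between mice. DESeq2 did not call Cd244 (log2 difference -0.90, adjusted p = 0.196), while a centred log ratio over the 4 tags took Cd48 to -2.65 and Cd244 to -1.50, and division by RNA UMIs took Cd48 to -1.81. Ly9 and Cd84 were not called, at -0.32 (edgeR adjusted p = 0.422) and -0.19 (0.368). Cd84 was at 0.77 (edgeR adjusted p = 1.29e-06) with the tag divided by RNA UMIs, and Ly9 at -0.70 (0.0227) with it divided by the other mice's hashtags.

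Among genes at 10 CPM or more the largest rises along CD150 were Car1, Cavin2, Ly6c2, Pf4 and Mfsd2b. Pf4, the platelet chemokine, went from 37.0 ± 21.6 to 433 ± 281 CPM, and Car1, the red cell carbonic anhydrase, from 2.65 ± 1.60 to 105 ± 61.4 CPM. Ly6c2 was higher in 3 of 4 mice. The largest falls were smaller: Cdkn1a, Sstr2, Il1r1, Maml3 and Ccl4, with log2 differences from -1.30 to -1.13. Of the 13 LSK surface genes tested, 5 rose, among them Itga2b, Esam, Cd9 and Vwf, 6 fell (Cd34, Flt3, Ly6a, Cd27, Cd53 and Cd37), and 2 were not called. Itga2b, which encodes CD41 of platelets and their precursors, rose by 1.83 (SE 0.12, edgeR adjusted p = 1.04e-28). Of the 9 signalling genes, Lck fell by 0.82 on the log2 scale and 8 were not called, with a median of -0.03 beside 0.00 over all genes. The share of all genes called in this comparison was 8.88%. The megakaryocyte-primed marker list went from 465 to 1312 CPM between the lowest and highest CD150 quintile, while the stem cell list went from 3085 to 3175 CPM. Ifitm1 made up 1242 of the 3059 CPM of the stem cell list. By cells, the HSC-like cluster described below went from 12.0% to 28.1% and the megakaryocyte-erythroid-primed-like cluster from 2.21% to 15.4% of the quintile.

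The CD150 tag had a narrow range. The 95th percentile of cells held 2.58 to 2.87 times as many CD150 tag UMIs as the 5th percentile in the 4 mice, against 5.53 to 5.97 times for CD48. Hashtags of other mice, which should be absent, had medians of 21.0 to 83.0 UMIs per cell, beside medians of 77.0 to 78.0 for CD150. Within mice the CD150 tag had a Spearman correlation of 0.29 to 0.37 with the other mice's hashtags and 0.05 to 0.11 with the CD48 tag, over the 557 to 1175 cells of a mouse that share 1 library. The CD48 tag had 0.69 to 0.75 with Cd48 CPM per cell and 0.49 to 0.59 with RNA UMIs, and CD150 had 0.11 to 0.20 with Slamf1. Divided by the other mice's hashtags, an alternative chosen after seeing the data, the tags gave log2 differences of 2.83 for Slamf1 along CD150 and 4.38 for Cd48 along CD48.

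The same association in the same cells was also read from the RNA side, after the RNA of each cell was thinned to 4000 UMIs (82 shallower cells left out). The tags were not thinned. Cells with 0, 1 and 2 or more Cd48 UMIs had CD48 tag medians of 82.5 ± 6.66, 149 ± 6.98 and 182 ± 11.1 (mean and SD of 4 mice). The order held in each mouse. Before thinning these cells had median depths of 7414, 8814 and 9772 RNA UMIs, so their tags were not matched for depth. The 77 cells with 1 Slamf1 UMI had a CD150 median of 88.1 ± 5.65, beside 77.5 ± 0.58 in cells with 0, and the mice did not overlap. Cells with 1 Cd244 UMI had CD48 medians of 138 ± 8.14, beside 108 ± 9.40.

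The pair of tags was also read together, in corners that held fewer cells than the quintiles above. Whether the pair separates cells further than either tag alone was not tested. Cells were split into tertiles of each tag within each mouse, which left 375 cells at the CD150-high CD48-low corner, the gate commonly used for stem cells. Slamf1 stood there at 25.2, 34.9, 22.0 and 17.2 CPM in Helios-deficient mice 1 and 2 and wild type mice 1 and 2. In the other 3 corners no mouse exceeded 5.91 CPM. Cd48 in the stem cell corner was 4.81 to 10.0 CPM and Cd244 was 0 to 8.80 CPM, from 12 UMIs. Among CD48-low cells, the 439 that were CD150-low had more Cd48 (52.1 ± 11.8 CPM) and Cd244 (17.3 ± 11.6 CPM, SD, n = 4) than the CD150-high ones in each mouse. CD150-high CD48-high cells had little Slamf1 (4.85 ± 1.40 CPM) in spite of their CD150 tag, with Cd48 at 255 ± 13.2 CPM, and CD150-low CD48-high cells had the most Cd48, at 329 ± 16.4 CPM. The HSC-like cluster described next made up 57.6% of the stem cell corner, 33.9% of the CD150-low CD48-low corner and 3.15% and 0.610% of the CD48-high corners, against 18.7% of all cells.

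**Figure D2:**
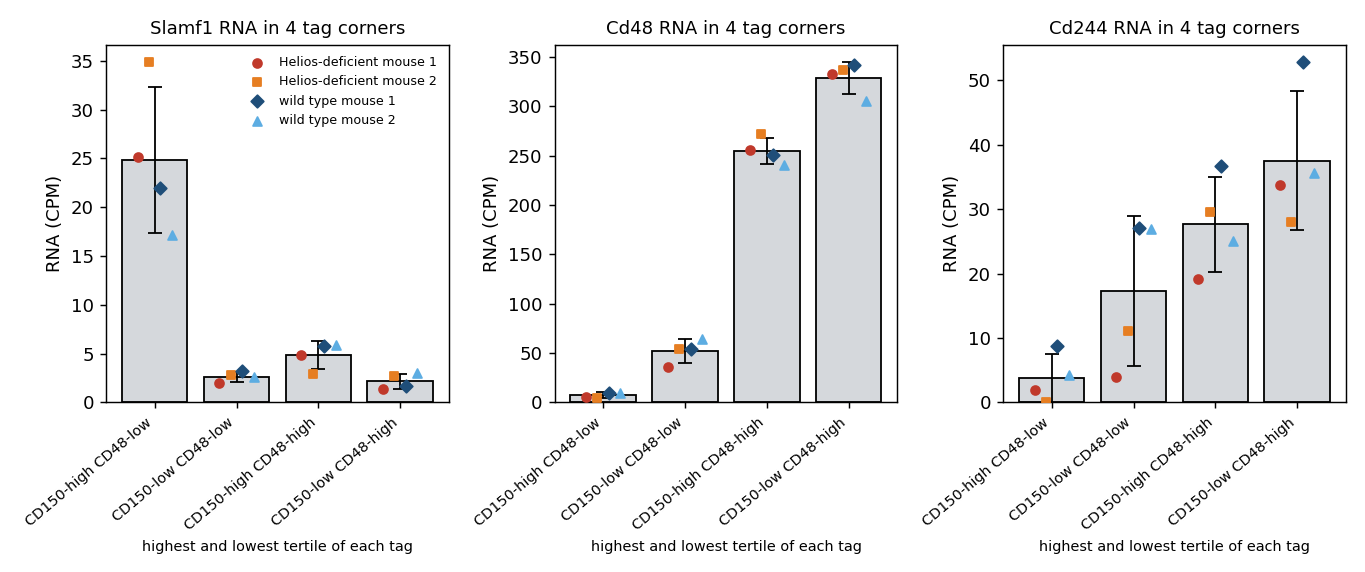
RNA of the 3 genes (CPM, linear axes from 0) in the 4 corners made from the highest and lowest tertile of each tag. Bars are the mean and SD of 4 mice and points are mice. Slamf1 stands out in the CD150-high CD48-low corner, where its lowest mouse is at 17.2 CPM, and Cd48 is lowest there.

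To place the genes along the hematopoietic states, cells were clustered on RNA with the 10 SLAM receptor genes left out, so the members did not shape the clusters, although genes that vary with them did. Of 10 clusters, 5 took a name from marker genes: HSC-like 0 (650 cells, with Mecom, Hlf and Procr among its markers), megakaryocyte-erythroid-primed-like 6 (244 cells), lymphoid-primed-like 2 (518 cells), lymphoid-primed-like 8 (96 cells, with Dntt, Il7r and Rag2) and myeloid-primed-like 4 (484 cells, with Elane and mitotic genes). Cluster 6 carries both names because its 10 leading genes by fold held 2 markers of each list, Pf4 and Cavin2 of the megakaryocyte list and Car1 and Klf1 of the erythroid list, with Car1 first. Over all genes, 10 megakaryocyte and 6 erythroid markers were enriched in it. Cluster 4 took its name from Mpo, Elane, Ctsg and Ms4a3, but most of its leading genes by fold were cell cycle genes such as Nusap1, Birc5 and Mki67. Itga2b was also higher in it than in HSC-like cells (log2 difference 1.24, edgeR adjusted p = 2.52e-09). It is therefore a mixed cycling cluster rather than a purely myeloid one. The leading genes of HSC-like 0 by fold were antibody genes, and 99.5% of those UMIs came from 4 of its cells. Those cells held 0 Slamf1 and Cd244 UMIs and 4 Cd48 UMIs, and without them the HSC-like levels below were 13.2, 21.4 and 6.51 CPM in place of 12.9, 21.7 and 6.37.

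Cd48 was lowest in the HSC-like cluster and higher in every other named cluster. It stood at 12.1, 18.6, 26.0 and 29.97 CPM in the HSC-like cells of Helios-deficient mice 1 and 2 and wild type mice 1 and 2. The means of the other classes were 57.9 ± 23.3 CPM in megakaryocyte-erythroid-primed-like, 221 ± 41.5 in lymphoid-primed-like 2, 254 ± 16.5 in myeloid-primed-like and 317 ± 58.4 in lymphoid-primed-like 8 cells (SD, n = 4). Every mouse was above its own HSC-like level in each. The fits for lymphoid-primed-like 8 rest on 3 mice, since Helios-deficient mouse 1 had 13 cells there, under the 20 asked of a sum. The log2 differences from HSC-like were 1.41 (SE 0.40), 3.27 (0.29), 3.55 (0.27) and 3.86 (0.34), with edgeR adjusted p of 0.0135, 3.74e-06, 2.13e-07 and 2.31e-06. These comparisons, which share the HSC-like cells, called 43.6%, 21.0%, 48.6% and 30.4% of genes in that order. The megakaryocyte-erythroid-primed-like difference rested on the mice used: it was no longer called without Helios-deficient mouse 2 (1.44, adjusted p = 0.0815) or wild type mouse 1 (1.495, 0.0703). The mice of the 3 classes above 200 CPM overlapped, so neighbours in that order were not set apart by their spread.

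Cd244 split the classes into 2 levels. HSC-like cells had 9.43, 0.846, 7.73 and 7.49 CPM, and megakaryocyte-erythroid-primed-like cells had 6.91, 2.02, 1.63 and 6.46 CPM, from 26 and 12 UMIs. These overlapped, and the difference was not called (log2 difference -0.49, SE 0.56, edgeR adjusted p = 0.516). Myeloid-primed-like cells stood at 25.5 ± 10.7 CPM and lymphoid-primed-like 2 and 8 cells at 41.8 ± 5.86 and 48.2 ± 9.30 CPM, each above the HSC-like range in every mouse. Their log2 differences were 2.11, 2.79 and 3.05 (edgeR adjusted p = 8.10e-08, 2.52e-10 and 2.73e-08). Cd48 thus rose in the megakaryocyte-erythroid-primed-like cluster where Cd244 did not pass the test, and the 2 genes were not tested against each other.

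Slamf1 was highest in the HSC-like and megakaryocyte-erythroid-primed-like classes. It stood at 14.8, 18.6, 11.95 and 6.42 CPM in HSC-like cells and at 17.3, 20.2, 11.4 and 12.9 CPM in megakaryocyte-erythroid-primed-like cells (log2 difference 0.27, SE 0.33, edgeR adjusted p = 0.531), and the mice overlapped. Myeloid-primed-like cells had 5.60 ± 2.37 CPM, a log2 difference of -1.19 (edgeR adjusted p = 0.00168) that was not called without Helios-deficient mouse 2 (-0.73, adjusted p = 0.131). Lymphoid-primed-like cells had almost none. Cluster 2 held 4 UMIs and cluster 8 held 3, with 0 in both wild type mice of the latter. The pooled level was 0.0789 times that of HSC-like cells in cluster 2 (exact 95% interval 0.0208 to 0.214) and 0.188 times in cluster 8 (0.0376 to 0.578), intervals that cover counting error only. Both were called by edgeR (adjusted p = 9.60e-07 and 0.00763), the second not without wild type mouse 1 (0.0768). Without Helios-deficient mouse 2 the sums of cluster 8 held 0 Slamf1 UMIs and gave no value.

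At a finer resolution of the clustering (1 in place of 0.5), 368 of the 650 HSC-like cells fell in a cluster that took no name. It was led by antibody genes, with Hlf, Mecom and Procr also enriched. The HSC-like counterpart shared 210 of the 650 cells. Against it every Cd48 difference was larger, at 2.47, 4.35, 5.22 and 4.94 in megakaryocyte-primed-like, lymphoid-primed-like 2, myeloid-primed-like and lymphoid-primed-like 8 counterparts, and all stayed called. In the megakaryocyte-primed-like counterpart Slamf1 went to -0.57 (edgeR adjusted p = 0.200) and Cd244 to 1.53 (0.174), neither called. Cd244 stood at 4.46, 3.67 and 4.79 in the lymphoid-primed-like 2, myeloid-primed-like and lymphoid-primed-like 8 counterparts. The HSC-like counterpart held 2 Cd244 UMIs and 14 Cd48 UMIs over the 4 mice, so these larger differences rest on a very sparse reference. Of the 484 cells of cluster 4, 224 fell in a cluster led by Pclaf and Rrm2, with Mpo and Ctsg enriched. Another 148 fell in a cluster led by Ube2c and Cenpf, and 65 in the megakaryocyte-primed-like one. The myeloid-primed-like counterpart shared 32 of the 484 cells and reached 20 cells in Helios-deficient mouse 2 alone, so its values rest on 1 mouse. Its sum held 0 Slamf1 UMIs, and no Slamf1 value is given. Of the 244 cells of cluster 6, 168 fell in the megakaryocyte-primed-like counterpart and 53 formed an erythroid-primed-like cluster, too small in each mouse for a fit. Slamf1 stood at 19.4 ± 2.62 CPM in the 233 cells of the former and at 3.70 ± 4.99 CPM, from 4 UMIs, in the 53 erythroid-primed-like cells. Cd48 stood at 58.2 ± 21.2 and 89.6 ± 20.4 CPM and the CD48 tag at 92.0 ± 7.48 and 131 ± 17.6 UMIs in the same order (SD, n = 4). Cd244 was low in both, at 5.35 ± 2.33 and 5.72 ± 5.39 CPM.

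The other receptors and the signalling genes did not share 1 direction across the classes. Against HSC-like cells Ly9 rose by 0.78 and Cd84 fell by 0.43 on the log2 scale in lymphoid-primed-like 2 (edgeR adjusted p = 0.0140 and 0.0225), and both fell in megakaryocyte-erythroid-primed-like cells, by 2.47 and 0.89 (5.73e-06 and 5.92e-06). In lymphoid-primed-like 8 neither was called, and in myeloid-primed-like cells Cd84 alone fell, by 1.07 (3.75e-10). In lymphoid-primed-like 2, Ly9 was not called without Helios-deficient mouse 2 or wild type mouse 1, nor Cd84 without any 1 of the mice other than wild type mouse 1. Of the 8 signalling genes tested, 3 rose and 0 fell in lymphoid-primed-like 2, and 2 rose and 1 fell in lymphoid-primed-like 8. In megakaryocyte-erythroid-primed-like cells 2 rose and 4 fell, and in myeloid-primed-like cells 0 rose and 3 fell. Of all genes, 21.0%, 30.4%, 43.6% and 48.6% were called in that order, so these counts by themselves say little about the signalling genes. Lck made the widest range, with log2 differences of 1.85 and 3.22 in lymphoid-primed-like 2 and 8 and -2.60 in megakaryocyte-erythroid-primed-like cells. Prkcq fell in lymphoid-primed-like 8 and myeloid-primed-like cells, by 1.35 and 0.69.

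The 5 clusters without a name lay between these ends. Cd48 stood at 71.5 to 227 CPM, Cd244 at 6.03 to 38.1 CPM and Slamf1 at 2.88 to 8.22 CPM as means over mice. The highest of these Slamf1 values, in cluster 9, came from 1 UMI in 1 mouse. Over the 10 clusters Cd48 and Cd244 had a Pearson correlation of 0.87 on the log2(CPM + 1) scale, and Slamf1 had -0.80 with Cd48 and -0.88 with Cd244, values given as a description since all clusters come from the same 4 mice. By that measure the genes most like Slamf1 among 7727 were Nadk2 (0.94), Aldh1a1 (0.94), Bex4 (0.93), Stard4 (0.92) and Nab1 (0.91). Those most like Cd48 were Spns3 (0.96), Adgrg3 (0.95), Litaf (0.93), Paox (0.93) and Plac8 (0.92), and those most like Cd244 included Gm20342 (0.96), Rnpep (0.95), Sh2d5 (0.95) and Gpi1 (0.94).

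**Figure D3:**
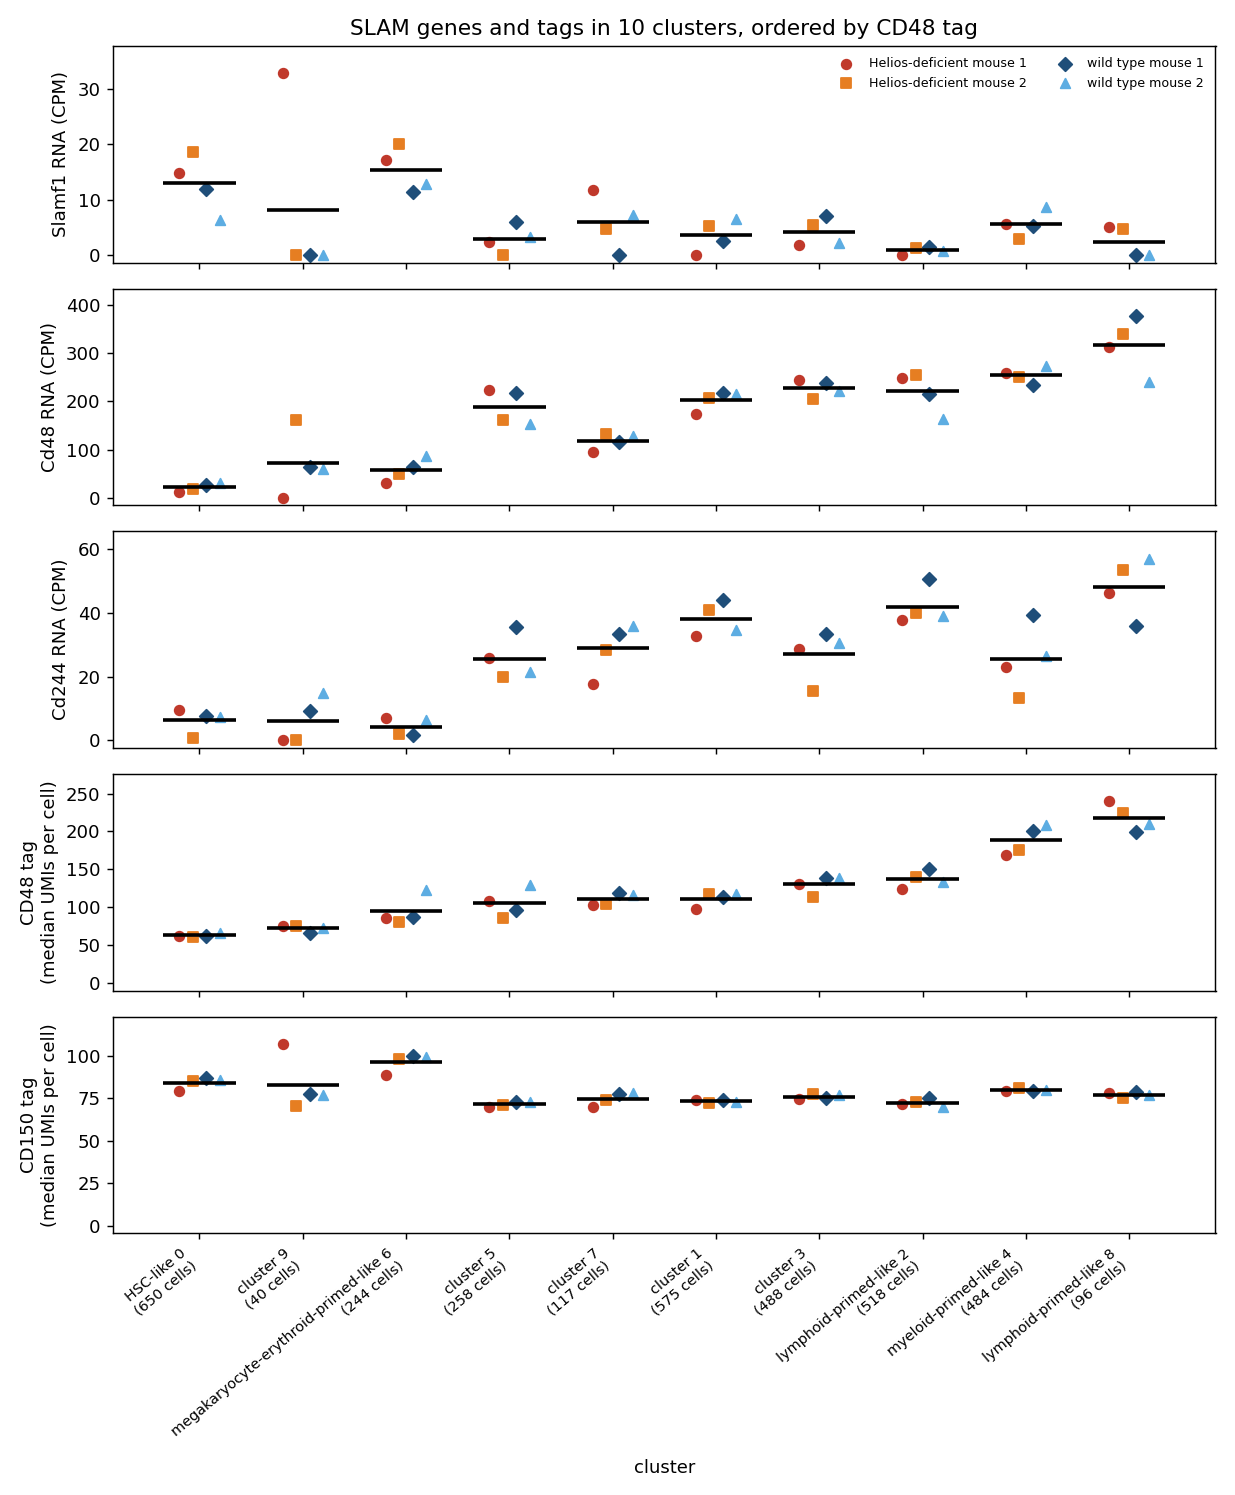
RNA of Slamf1, Cd48 and Cd244 (CPM) and the CD48 and CD150 tags (median UMIs per cell) in 10 clusters, ordered by CD48 tag, with 1 point per mouse and a line at the mean of 4 mice. CD48 runs from 62.9 to 218 tag UMIs, whereas CD150 runs from 71.8 to 96.5.

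The share of cells with a UMI was also compared at equal depth. After thinning to 4000 UMIs, Cd48 was seen in 6.92% of HSC-like, 22.6% of megakaryocyte-erythroid-primed-like, 48.3% of lymphoid-primed-like 2, 55.0% of myeloid-primed-like and 68.8% of lymphoid-primed-like 8 cells. Before thinning the shares were 10.6%, 34.4%, 64.5%, 83.7% and 91.7%, at median depths of 6076, 10280, 6940, 15018 and 12728 UMIs. Free RNA was not measured, and the HSC-like cluster had more Cd48 than the stem cell corner (4.81 to 10.0 CPM). How much of the 6.92% is background was therefore not tested. Cd244 was seen in 2.14% of HSC-like and 1.65% of megakaryocyte-erythroid-primed-like cells, and the background in these shares was not tested either. In lymphoid-primed-like and myeloid-primed-like cells Cd244 was seen in 9.71% to 16.0%. Slamf1 was seen in 4.61% of HSC-like and 5.35% of megakaryocyte-erythroid-primed-like cells, beside 0.585% to 1.65% in the other named classes.

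As raw UMIs, the CD48 tag ordered the classes as Cd48 RNA did. CD48 medians were 62.0, 61.0, 62.0 and 66.5 UMIs in the HSC-like cells of the 4 mice. They were 94.5 ± 19.5 in megakaryocyte-erythroid-primed-like, 137 ± 10.8 in lymphoid-primed-like 2, 188 ± 18.7 in myeloid-primed-like and 218 ± 17.7 in lymphoid-primed-like 8 cells. All 4 mice were above their HSC-like value in each class, which gives an exact sign-flip p of 0.13, the smallest that 4 mice allow. CD150 medians were 84.1 ± 3.52 in HSC-like and 96.5 ± 5.40 in megakaryocyte-erythroid-primed-like cells, higher in the latter in 4 of 4 mice (exact p = 0.13), and 72.4 to 79.8 in the other named classes. Classes differ in RNA depth, and with the tags divided by the cell's RNA UMIs the megakaryocyte-erythroid-primed-like differences from HSC-like turned round, from 49.6% to -16.3% for CD48 and from 14.7% to -32.9% for CD150. The order of the classes by CD48 tag changed too. Per 1000 RNA UMIs it stood at 10.4 in HSC-like, 8.73 in megakaryocyte-erythroid-primed-like, 12.5 in myeloid-primed-like, 17.8 in lymphoid-primed-like 8 and 18.1 in lymphoid-primed-like 2 cells, and the myeloid-primed-like difference from HSC-like went from 199% to 20.04%. CD150 in cluster 6 was also only 1.55% above HSC-like at the finer resolution.

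The Flt3 protein tag, CD135, gave a weaker contrast. Its 95th percentile of cells held 2.42 to 2.69 times as many tag UMIs as the 5th percentile in the 4 mice. Its Spearman correlation with the other mice's hashtags was 0.32 to 0.38. Flt3 RNA itself was not called along it (log2 difference 0.59, SE 0.27, edgeR adjusted p = 0.590). Between its lowest and highest quintile 1.95% of genes were called, and Cd48 was the 1 member among them. Cd48 went from 191, 167, 166 and 161 CPM to 187, 241, 182 and 201 CPM, higher in 3 of 4 mice (log2 difference 0.27, SE 0.07, edgeR adjusted p = 0.0154). Slamf1 (-0.41, adjusted p = 0.743) and Cd244 (0.08, 0.921) were not called. The Cd48 call was lost when the tag was divided by the other mice's hashtags (0.09, adjusted p = 0.727) and turned to -1.25 (4.20e-21) when it was divided by RNA UMIs.

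None of the 3 genes passed edgeR's test between genotypes, in a comparison that called 0.794% of 11592 genes, and 1 of the 3 had an unadjusted p below 0.05, as did 10.4% of all genes. DESeq2 called 0 of the 3. Cd48 had overlapping mice, at 183 ± 4.51 CPM in Helios-deficient against 185 ± 6.72 CPM in wild type (SD, n = 2, log2 fold change -0.02, SE 0.06, edgeR adjusted p = 0.962). Without cells holding 3 or more UMIs of mature cell markers, which left out 1447 of the 3470 cells (41.7%), it was -0.27 (SE 0.10, edgeR adjusted p = 0.259). That filter summed the macrophage, B cell, T and NK cell and neutrophil lists, and Nkg7 (250 CPM) and Cd79b (43.4 CPM) led the counts. The T and NK cell list also rose along the CD48 tag. Whether the cells left out were mature cells was not tested. Slamf1 was at 7.03 ± 0.81 against 5.56 ± 0.09 CPM with no overlap (0.35, SE 0.22, adjusted p = 0.632). Cd244 was the nearest to a call, at 21.3 ± 2.65 CPM in Helios-deficient and 30.02 ± 4.42 CPM in wild type mice, with no overlap (SD, n = 2). A lack of overlap carries little weight here: the smallest exact two-sided permutation p of 2 against 2 mice is 0.33. Its share over all genes was not counted, and many of the listed genes showed it too. For Cd244 the edgeR values follow. Its log2 fold change was -0.52 (SE 0.13, unadjusted p = 0.000909, edgeR adjusted p = 0.0717). The call depended on the settings: Cd244 was past the threshold with no filter on low counts (adjusted p = 0.00230), when Helios-deficient mouse 1 (0.000451) or wild type mouse 2 (0.00939) was left out, and without those 1447 cells (-0.78, 0.0298). It was not when every mouse gave the same number of cells to a cluster (-0.41, 0.623) or with DESeq2. Ly9 (-0.28, adjusted p = 0.595) and Cd84 (-0.19, 0.572) were not called, though Cd84 was without Helios-deficient mouse 2 (-0.39, 0.0184). Of the 9 signalling genes tested 0 were called by edgeR, and Lck and Vav1 had an unadjusted p below 0.05, beside 10.4% of all genes. Of the 15 LSK surface genes, Flt3 fell by 0.54 on the log2 scale and Esam rose by 0.44. Other cells' markers differed beside these values: the erythroblast list stood at 46.3 to 61.6 CPM in Helios-deficient and 93.5 to 132 CPM in wild type mice, the T and NK cell list at 236 to 239 against 259 to 284 and the dendritic cell list at 135 to 140 against 144 to 166. The LSK list was at 751 to 756 against 841 to 898 CPM. Their part in the Cd244 value was not tested. Cluster makeup differed as well. Lymphoid-primed-like 2, a class high in Cd244, held 46 of 557 and 92 of 824 Helios-deficient cells, and 201 of 1175 and 179 of 914 wild type cells. Lymphoid-primed-like 8, the other such class, held 13 and 32 against 30 and 21 cells. The value with the same number of cells per cluster (-0.41) is the one given above.

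**Figure D4:**
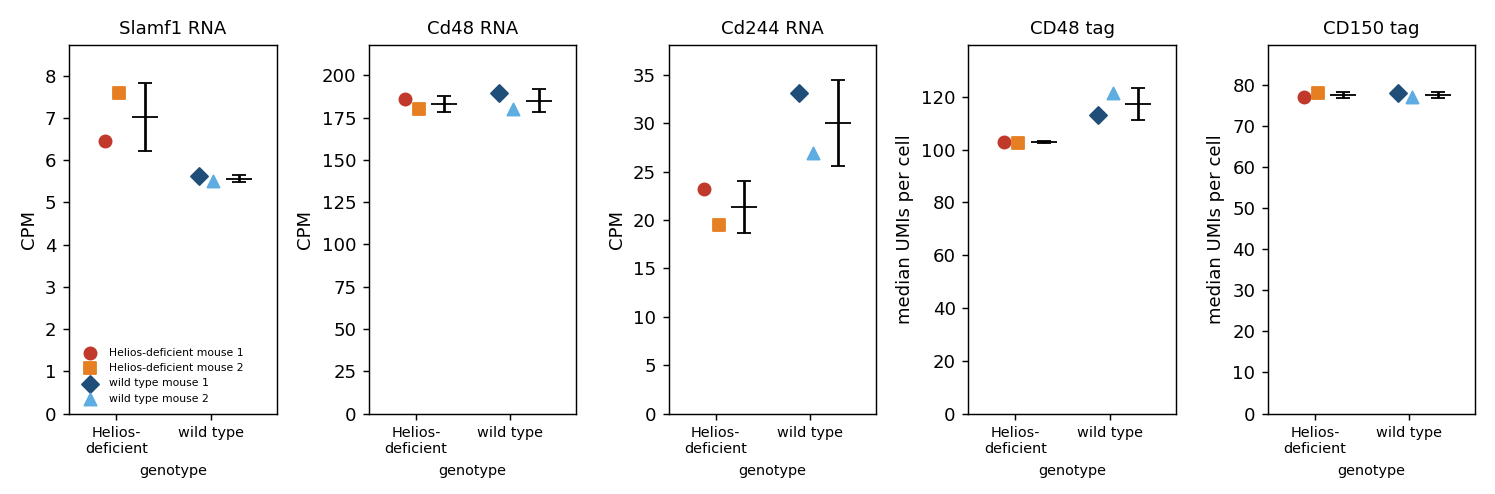
RNA of the 3 genes (CPM) and the CD48 and CD150 tags (median UMIs per cell) by genotype, with 1 point per mouse and the mean and SD of 2 mice beside them, on axes from 0. Cd244 RNA and the CD48 tag are lower in both Helios-deficient mice, and Cd48 RNA and the CD150 tag overlap between genotypes.

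The CD48 protein tag was lower in both Helios-deficient mice, with medians of 103.0 and 102.5 UMIs per cell against 113.0 and 121.5. The groups did not overlap. The exact two-sided permutation p is 0.33, the smallest that 2 against 2 mice allow, so the difference cannot pass a threshold. The difference, Helios-deficient minus wild type, was -14.5 UMIs, and -11.25 when every mouse gave the same number of cells to a cluster. Both mice were also lower by the mean, as a share of the 4 tags and relative to RNA UMIs, while Cd48 RNA overlapped. With tertile limits set over all cells (80 and 151 UMIs), the share of CD48-high cells was 27.5% and 29.9% in Helios-deficient against 35.1% and 37.0% in wild type mice, and that of CD48-low cells 36.4% and 38.0% against 33.4% and 28.6% (exact p = 0.33 each). CD150 medians were 77.0, 78.0, 78.0 and 77.0. The CD150-high CD48-low corner, with CD150 limits of 69 and 88 UMIs, held 11.8% and 13.5% of Helios-deficient against 10.6% and 8.97% of wild type cells (exact p = 0.33).

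Within classes, the HSC-like and myeloid-primed-like clusters held at least 50 cells in every mouse and were tested by genotype, and edgeR called 0 members in either, though Cd48 in the first and Cd244 in the second had an unadjusted p below 0.05, as did 6.31% and 5.40% of all genes there. The comparisons called 0.279% and 0.337% of genes. In myeloid-primed-like cells Cd244 was at 23.1 and 13.2 CPM in Helios-deficient and 39.2 and 26.4 CPM in wild type mice. Its log2 fold change there was -0.91 (SE 0.24, edgeR adjusted p = 0.0949). It ranged from -1.33 to -0.52 when a mouse was left out, which leaves 1 mouse in that genotype. In HSC-like cells Cd48 stood at 12.1 and 18.6 against 26.0 and 29.97 CPM (-0.81, SE 0.31, adjusted p = 0.634), and Slamf1 at 14.8 and 18.6 against 11.95 and 6.42 CPM (0.77, SE 0.40, adjusted p = 0.790). Cd244 was too sparse there to be tested.

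The step along each tag was also compared between genotypes. Along CD48, the Cd244 step was larger by 1.66 on the log2 scale with Helios deficiency (SE 0.53, unadjusted p = 0.00170, edgeR adjusted p = 0.159), and the Cd48 step by 0.95 (SE 0.31, unadjusted p = 0.00318, adjusted p = 0.224). Neither passed, in a test that called 0.601% of genes. The values behind them were those of the lowest quintile, where Cd244 was 7.27 and 1.62 CPM against 16.6 and 13.0 CPM, from 53 UMIs in all. With tertiles in place of quintiles the differences were 1.04 (adjusted p = 0.421) for Cd244 and 0.59 (0.301) for Cd48. In the CD150-low CD48-low corner Cd244 was 3.996 and 11.1 against 27.0 and 27.0 CPM. Along CD150 the Slamf1 step differed by 1.72 (SE 0.92, edgeR adjusted p = 0.976), with 0.102% of genes called, and by 0.30 with tertiles. None of the 3 genes was therefore shown to follow its tag differently by genotype.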

How the data were processed

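Bone marrow LSK cells of 4 mice, 2 Helios-deficient and 2 wild type, went through 1 droplet run. The deposited matrix holds raw UMI counts of genes, antibody tags and hashtags in 4108 barcodes. The submitters' processing notes name Cell Ranger, Seurat 3.0.0 and mm10 with no roles. The deposited list of 3470 kept barcodes was used, all called by the authors for 1 mouse, so doublets between mice were out. No doublet caller was run, and the list's filter is not given in the sources used here.

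Counts were summed per mouse, tag quintile (within mouse, raw tag UMIs) or cluster and tested with edgeR 4.0.16 (quasi-likelihood, robust, TMM, default filter on low counts, mouse as a block in comparisons within mice), with Benjamini-Hochberg adjusted p and a threshold of 0.05. Such p-values measure the spread between these mice. DESeq2 1.42.0, other tag scalings, bins, filters, cluster resolution and leaving out each mouse were alternatives. SE is the log2 fold change over the square root of F. Clusters used 1500 variable genes, 30 components, 20 neighbours and Leiden resolution 0.5 (leidenalg 0.10.2), without SLAM receptor, cell cycle, sex-linked, mitochondrial and genotype-called genes. Fits were tested on simulated data. The members and lists were chosen with earlier results of these data known. Named genes were the members, their lists, the 5 largest rises and falls by tag at 10 CPM or more, and the 5 genes most like each member. Some genes that this rule names are not reported here.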

Additional observations from a re-analysis of the deposited data

Results flagged for a closer look

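In 3 of 49 groups of 4 mice, 1 mouse lay far from the others, against about 1 in 20 groups by chance. Cd244 in the highest quintile of the CD48 tag was 41.9 CPM in wild type mouse 1, with the other 3 mice at 29.0 to 29.2 CPM. The same mouse had 50.5 CPM of Cd244 in lymphoid-primed-like 2 cells, with the others at 37.8 to 39.8 CPM. The CD48 tag median in megakaryocyte-erythroid-primed-like cells was 123.5 UMIs in wild type mouse 2, with the others at 81.0 to 87.0.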

How the results depend on the processing

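Of 408 alternative values, 329 stayed the same, 17 lost a call, 10 gained one, 35 moved and 17 changed sign. For a gene's fit, the same means the same direction and side of the threshold. For a number of genes called it means a change within a set fold. For a tag difference it means a change within an SD over mice. The RNA differences of Slamf1, Cd48 and Cd244 along the CD48 tag, and of Slamf1 and Cd48 along the CD150 tag, kept their call in all 11 alternatives each. The cause of the changes below was not tested. Slamf1 (205 UMIs) and Cd244 in HSC-like cells (26 UMIs) are limited by depth.

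Genes called between genotypes (92) were 33 with DESeq2, 296 with no filter, 57 without the robust option, 46 with equal cells per cluster, 156 without mature transcripts, and 126 to 565 leaving out a mouse (565 without Helios-deficient mouse 2, 306 without mouse 1). Cd48 by genotype was 0.025 with equal cells and -0.048 to 0.020 leaving out a mouse, and -0.265 without the 1447 cells that hold mature transcripts. Cd244 was -0.523 with no filter, -0.784 without those 1447 cells and -0.645 to -0.350 leaving out a mouse.

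Along CD150 the calls (825) were 177 with DESeq2, 2296 with the centred log ratio and 3799 per RNA UMI. Cd244 was -0.901 with DESeq2, Ly9 0.428 per RNA UMI, and Cd84 0.217 with the centred log ratio and 0.774 per RNA UMI. With tertiles the genotype differences in this step were 0.195 for Cd244 and -0.178 for Cd84. Along CD48 the calls (3282) were 1650 with DESeq2, Cd84 was 0.326 per RNA UMI, and the genotype difference called 13 genes with tertiles (59 with quintiles). Along CD135 the calls (175) were 4062 per RNA UMI and 92 per other mice's hashtags, with Cd48 at -1.25 and 0.093. Per RNA UMI, Cd244 was -0.049 and Cd84 0.842.

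At resolution 1, megakaryocyte-primed-like Slamf1 was -0.574 and Cd244 1.528, and myeloid-primed-like calls (4338) were 2045, with Ly9 at 1.615, both from 1 mouse. Leaving out a mouse, Slamf1 ranged from -2.653 to -2.156 in lymphoid-primed-like 8 (no value without Helios-deficient mouse 2) and from -1.697 to -0.727 in myeloid-primed-like cells, and Cd48 from 1.261 to 1.495 in megakaryocyte-erythroid-primed-like cells. Genotype calls ranged from 10 to 27 in HSC-like (23 with all mice, 10 without Helios-deficient mouse 2) and from 25 to 83 in myeloid-primed-like cells (31 with all, 70 and 83 without Helios-deficient mouse 1 or 2), where Cd48 was -0.091 to 0.133 and Cd244 -1.328 to -0.522.

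The CD150 tag difference by genotype (0.00%) was 5.86% as a share of the 4 tags, -10.58% per RNA UMI and -1.59% with equal cells, and that of CD48 (-12.37%) was -20.47% per RNA UMI. Per RNA UMI, CD150 relative to HSC-like was -28.65%, -57.18%, -32.93% and -63.75% in lymphoid-primed-like 2, lymphoid-primed-like 8, megakaryocyte-erythroid-primed-like and myeloid-primed-like cells, and CD48 was 74.54%, 71.17%, -16.26% and 20.04%. At resolution 1, CD150 was -25.73%, -22.55%, 1.55% and -16.15%, and CD48 in myeloid-primed-like cells 287.06%.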
